A study of Arabidopsis thaliana with 9 samples.

Results

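A set of 64 Arabidopsis thaliana genes had a lower signal in root tips of one mutant, the cna-2 phb-13 phv-11 triple mutant, than in both other genotypes of the series. They were found among 13367 probe sets that match 1 nuclear gene each, so they are 0.479% of the probe sets that could be chosen, which stand for 13217 genes. A gene was taken when its mean log2 signal on the 3 triple-mutant arrays lay at least 0.4 below the mean of the 3 quadruple-mutant arrays and at least 0.4 below the mean of the 3 wild-type arrays, with the highest triple-mutant array under the lowest of the other 6. AGL42, IAA20 and genes with symbols starting CYP or TBL were left out by name, which removed 4 genes that met these values (AGL42, CYP78A9, CYP51G2 and IAA20). The members were thus selected on the measured log2 signals of all 9 arrays, so their levels in the triple mutant against the other 2 genotypes are given as a description and carry no test.

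RNA came from the last 0.5 mm of primary roots of seedlings 4 days after germination, with about 200 tips per sample and 3 biological replicates per genotype, on 1-colour Affymetrix ATH1 arrays. The triple mutant carries the alleles cna-2, phb-13 and phv-11. The quadruple mutant carries rev-6 in addition, with a PHV allele that some labels call phv-11 and others phv-6. Its homozygotes were picked out of a segregating family by their radial cotyledons. No such picking is described for the triple mutant or for wild type, which is Col er-2, and the labels do not say whether the mutants carry er-2 too. No seedling was treated.

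The 4 mutated genes belong to the class III homeodomain-leucine zipper (HD-ZIP III) family, a small group of plant transcription factors. They are known for setting the upper side of leaves and, in the root, for the patterning of xylem and the activity of the meristem, and microRNAs limit where their transcripts accumulate. REV, PHB and PHV are close relatives and partly stand in for each other, while CNA and ATHB8 form the other branch and can oppose REV in some tissues. A signal measured in whole root tips cannot tell fewer cells of a type from less RNA per cell.

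All 9 arrays were similar in overall signal, with medians of 5.92 to 5.95 in the triple mutant, 5.91 to 5.95 in the quadruple mutant and 5.79 to 5.89 in wild type on the log2 scale. The hybridization spike-in controls, which are added to each labelled sample, averaged 10.16 to 10.29 on the triple-mutant arrays against 9.83 to 10.07 on the other 6, so they moved with the genotype that defines the members, and their part in the result was not tested. The poly-A controls, added before labelling, stood at 7.20 on triple-mutant array 3 and 6.71 on quadruple-mutant array 3, against 4.82 to 5.25 on the other 7 arrays. The GAPDH signal near the 3′ end exceeded that near the 5′ end by 1.59 to 2.34 in the triple mutant, 1.98 to 3.27 in the quadruple mutant and 1.97 to 2.81 in wild type, ranges that overlap. For actin this excess was larger, 5.22 to 5.33 in the triple mutant, 5.11 to 5.79 in the quadruple mutant and 4.14 to 5.44 in wild type. Its lowest value was on wild-type array 3. Of 12 genes on a list for the stem-cell niche 5 could be looked up, and they did not move together. BBM stood at 7.90 ± 0.13 in the triple mutant, 8.35 ± 0.03 in the quadruple mutant and 7.75 ± 0.10 in wild type (SD, n = 3 each). AGL42 stood at 5.26 ± 0.21 in the triple mutant, 6.59 ± 0.22 in the quadruple mutant and 5.89 ± 0.20 in wild type (SD, n = 3 each). JKD (6.65 to 6.74 over the genotype means) and ACR4 (5.95 to 6.08) lay above the array medians in every genotype, and CLE40 (3.12 to 3.15) far below them. The root-hair expansins EXPA7 and EXPA18, genes of an older root zone, lay at 3.73 to 4.10 in every genotype mean, below those medians. No listed probe set named a marker of the root cap or of cell division on the lists used, so that side of the tissue could not be checked.

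Applied to the other genotypes and to the opposite direction, the same rule picked 275 probe sets that were high in the triple mutant alone (2.06%). It picked 36 low and 43 high in the quadruple mutant alone, and 54 low and 14 high in wild type alone. Those low only in the triple mutant were thus fewer than those high only in it, and more than those set apart in the quadruple mutant or wild type in either direction. Another 41 probe sets met the same values among 8730 that have no listed gene (0.470%), and they could not be named.

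Most members were set apart by a small step. The median difference was -0.59 against wild type and -0.62 against the quadruple mutant on the log2 scale, where the medians over all 22746 probe sets were -0.02 and -0.03. Both differences reached 0.5 or more in 35 members and 1 or more in 6. The clear space between the highest triple-mutant array and the lowest of the other 6 had a median of 0.23 and ran from 0.0036 in AT3G43960 to 2.06 in AT5G56380. At the threshold, the last genes taken were AT1G06990, AT1G33670 and PHV, whose smaller difference was 0.40, and the first genes not taken were AT1G48580 (0.398), AT1G49740 (0.388) and AT3G06035 (0.387).

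**Figure D1:**
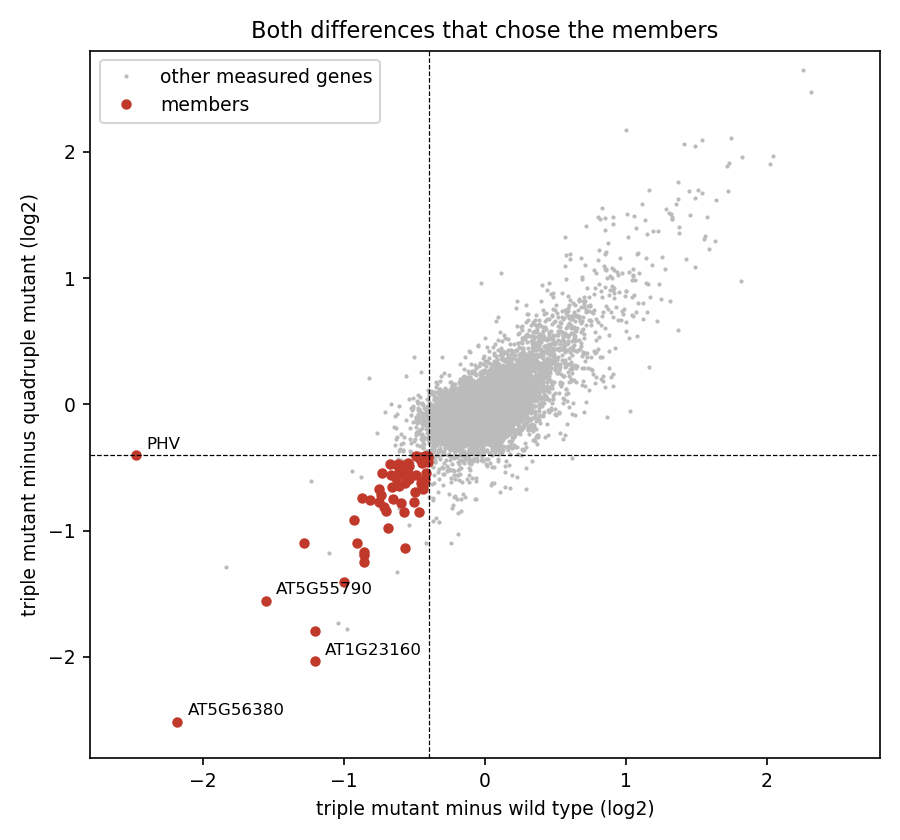
The horizontal axis shows the triple mutant minus wild type and the vertical axis the triple mutant minus the quadruple mutant, both as differences of mean log2 signal, with 1 point per probe set. Members are red, others grey, the dashed lines mark the threshold of 0.4, and 2 probe sets lie outside the axes at 2.8. AT5G56380 lies furthest down on both axes apart from PHV on the horizontal one, and most members crowd near the dashed corner.

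AT5G56380 was the member with the clearest difference. Its log2 signal was 3.99, 3.93 and 3.86 on the triple-mutant arrays, 6.37, 6.47 and 6.47 on the quadruple-mutant arrays and 6.13, 6.15 and 6.05 on the wild-type arrays. The 3 genotypes did not overlap, and the triple mutant was 5.71-fold below the quadruple mutant and 4.54-fold below wild type. Its neighbour AT5G56370, the next protein-coding gene in the annotation, was also a member but dim throughout, with 3.29, 3.42 and 3.34 in the triple mutant, 4.02, 3.75 and 4.30 in the quadruple mutant and 4.02, 4.21 and 4.09 in wild type. Its difference was much smaller, 1.59-fold against the quadruple mutant and 1.69-fold against wild type.

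AT5G55790 had 6.35, 5.91 and 6.01 in the triple mutant, 7.54, 7.68 and 7.71 in the quadruple mutant and 7.77, 7.54 and 7.62 in wild type. The quadruple mutant and wild type interleaved, and the triple mutant was 2.94-fold below each of them. AT5G22580 had 5.65, 5.62 and 5.45 in the triple mutant, 7.28, 7.76 and 7.06 in the quadruple mutant and 7.17, 6.78 and 6.40 in wild type. Here the triple mutant was tight and the other 2 genotypes were spread over more than 1 log2 unit between them, with the quadruple mutant mostly on top.

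AT4G39970 and AT4G39955, which have 1 protein-coding gene between them, were both members. AT4G39970 averaged 4.49 ± 0.18 in the triple mutant, 5.58 ± 0.19 in the quadruple mutant and 5.77 ± 0.04 in wild type (SD, n = 3 each). AT4G39955 was brighter, at 7.66 ± 0.11 in the triple mutant, 8.75 ± 0.05 in the quadruple mutant and 8.56 ± 0.12 in wild type (SD, n = 3 each). The fold against the quadruple mutant was 2.14 in both genes, although their levels differed. AT1G47410 and AT1G47400 are direct neighbours, and they behaved less alike. AT1G47410 had 4.75, 4.65 and 4.67 in the triple mutant, 5.91, 6.19 and 6.22 in the quadruple mutant and 5.81, 5.47 and 5.80 in wild type. AT1G47400 had 3.86, 3.97 and 3.89 in the triple mutant, 4.75, 4.70 and 4.01 in the quadruple mutant and 4.74, 4.79 and 4.08 in wild type. On the arrays numbered 3 of the quadruple mutant and of wild type, AT1G47400 was thus within 0.3 of the triple mutant, and its membership rests on a clear space of 0.04.

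**Figure D2:**
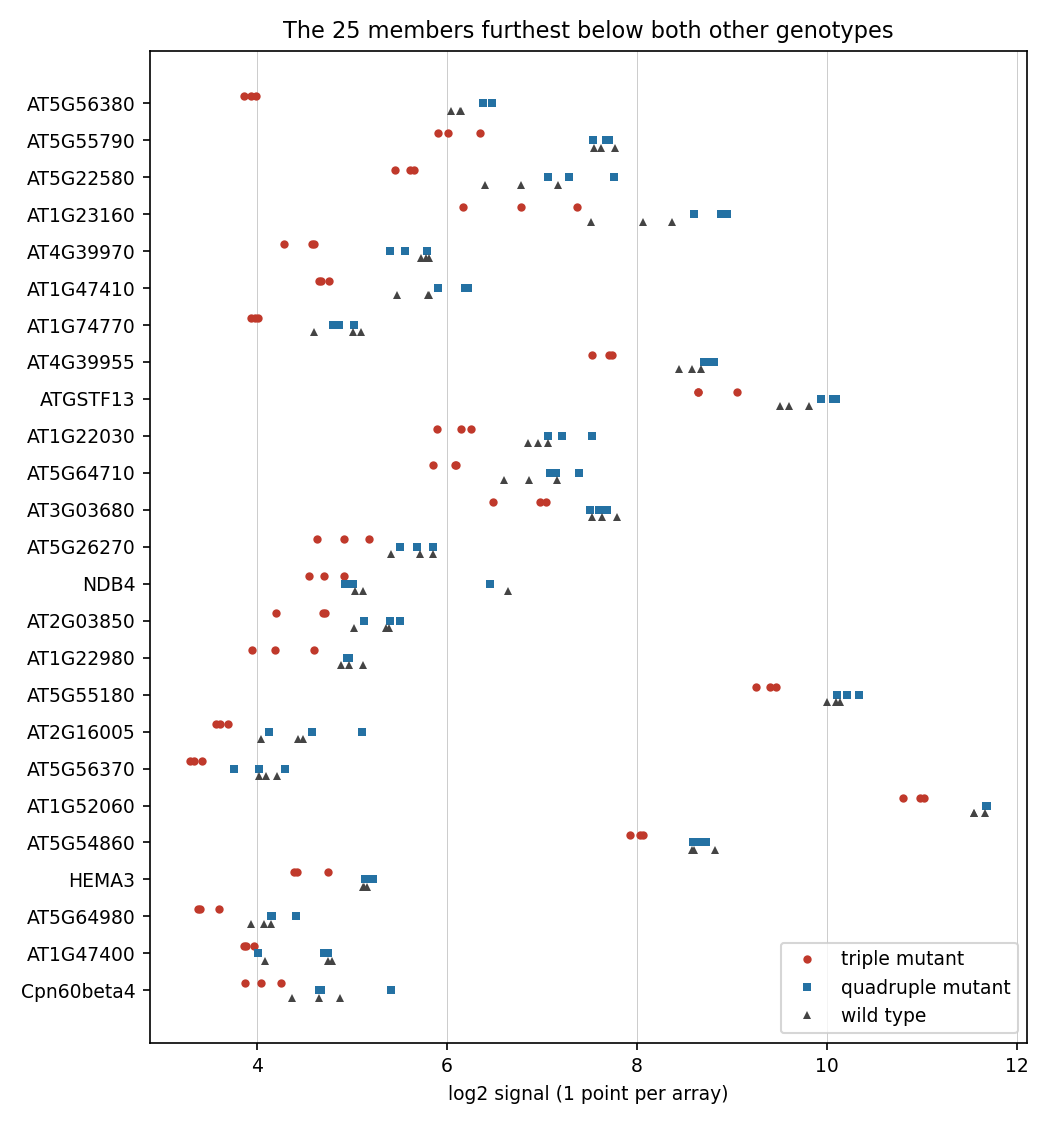
Each row is 1 of the 25 members furthest below both other genotypes, and the horizontal axis is the log2 signal with 1 point per array. Red circles are the triple mutant, blue squares the quadruple mutant and dark triangles wild type. The red points lie left of all others in every row, which the rule requires, while blue and dark points overlap in most rows, and NDB4 shows 1 blue and 1 dark point far to the right of their own groups.

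Only 11 of the 64 members have a symbol beyond their locus code in the annotation used here, or 17.2%, against 11.1% of all probe sets that could be chosen. ATGSTF13 (AT3G62760), a phi-class glutathione S-transferase, an enzyme class that joins glutathione to reactive compounds, was the brightest of the 11. It had 8.64, 9.06 and 8.64 in the triple mutant, 10.07, 9.94 and 10.10 in the quadruple mutant and 9.51, 9.81 and 9.60 in wild type. All 3 genotypes were separate, with wild type between the 2 mutants. The triple mutant was 2.38-fold below the quadruple mutant and 1.82-fold below wild type.

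NDB4 (AT2G20800) encodes an alternative NAD(P)H dehydrogenase of mitochondria, an enzyme that passes electrons to the respiratory chain without pumping protons. Its values were 4.70, 4.92 and 4.55 in the triple mutant, 5.01, 6.46 and 4.93 in the quadruple mutant and 5.03, 6.64 and 5.12 in wild type. The arrays numbered 2 stood more than 1.4 log2 units above their own groups in the quadruple mutant and wild type, and array 2 of the triple mutant did not follow. Outside those arrays the difference was small, and the clear space between the genotypes was 0.01.

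HEMA3 and hemb2 both carry symbols of enzymes early in tetrapyrrole synthesis, the pathway to heme and chlorophyll. HEMA3 (AT2G31250), a glutamyl-tRNA reductase gene, had 4.39, 4.75 and 4.42 in the triple mutant, 5.14, 5.22 and 5.15 in the quadruple mutant and 5.16, 5.11 and 5.13 in wild type. The other 2 genotypes were almost level, and the triple mutant was 1.57-fold below the quadruple mutant and 1.53-fold below wild type. For hemb2 (AT1G44318), named for aminolevulinic acid dehydratase, the values were 6.71, 6.61 and 6.98 in the triple mutant, 7.74, 7.33 and 7.79 in the quadruple mutant and 7.47, 7.13 and 7.11 in wild type. Here the quadruple mutant was mostly above wild type, and the clear space to the triple mutant was 0.13. A list of 21 genes of tetrapyrrole synthesis, drawn up after these 2 members had been seen, had 11 measured genes. The other 9, among them HEMA2, HEMB1, GSA1, HEME1, HEME2 and CHLM, passed in none of the 3 comparisons between genotypes (limma, adjusted p under 0.05), and the list's median difference between the triple mutant and wild type was -0.02, as over all probe sets.

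Cpn60beta4 (AT1G26230), a subunit of the chaperonin that folds proteins in plastids, averaged 4.06 ± 0.19 in the triple mutant, 4.91 ± 0.43 in the quadruple mutant and 4.63 ± 0.25 in wild type (SD, n = 3 each). The quadruple mutant's spread came from array 2, at 5.41 against 4.68 and 4.65.

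SWEET17 (AT4G15920), a fructose transporter of the vacuole, had 4.06, 4.17 and 4.53 in the triple mutant, 4.95, 4.81 and 4.80 in the quadruple mutant and 4.69, 4.93 and 4.81 in wild type. GH9B8 (AT2G32990), of the glycosyl hydrolase family that holds the plant endoglucanases, had 3.95, 3.77 and 4.08 in the triple mutant, 4.41, 4.60 and 4.67 in the quadruple mutant and 4.34, 4.47 and 4.69 in wild type. In both genes the quadruple mutant and wild type overlapped and the triple mutant lay below, with a clear space of 0.16 in SWEET17 and 0.26 in GH9B8.

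The last symbols belong to DL1B, SBT1.3, SAH7 and PHV. DL1B (AT3G61760), a dynamin-like GTPase that acts in membrane pinching, averaged 4.77 ± 0.06 in the triple mutant, 5.25 ± 0.05 in the quadruple mutant and 5.39 ± 0.03 in wild type (SD, n = 3 each). SBT1.3 (AT5G51750), a secreted-type subtilase protease, averaged 4.15 ± 0.04 in the triple mutant, 4.77 ± 0.29 in the quadruple mutant and 4.61 ± 0.03 in wild type (SD, n = 3 each). SAH7 (AT4G08685) averaged 7.11 ± 0.11 in the triple mutant, 7.57 ± 0.08 in the quadruple mutant and 7.65 ± 0.23 in wild type (SD, n = 3 each). DL1B had its 3 genotypes apart, whereas in SBT1.3 and SAH7 the quadruple mutant and wild type overlapped.

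PHV (AT1G30490) met the rule although it is one of the mutated genes and low in both mutants. It had 4.71, 4.77 and 4.76 in the triple mutant, 5.20, 5.22 and 5.03 in the quadruple mutant and 7.27, 7.14 and 7.28 in wild type. Its step between the mutants, -0.40 for the triple minus the quadruple mutant, only just passed the threshold, whereas that to wild type was -2.48. PHV is therefore not low in the triple mutant alone in the sense that the other 63 members are. CNA, PHB and REV were not analysed here.

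Among the members without a symbol, AT1G74770 was entered on the iron list as BTSL1, a relative of the iron-binding ubiquitin ligase BRUTUS that restrains iron uptake, a name taken from general knowledge since the annotation gives only the locus code. It had 3.98, 4.01 and 3.94 in the triple mutant, 4.87, 5.02 and 4.80 in the quadruple mutant and 5.01, 5.10 and 4.60 in wild type. The triple mutant was 1.89-fold below the quadruple mutant and 1.90-fold below wild type, from a level under the array medians. This gene was the 1 member with another single-gene probe set on the array, whose values did not enter the rule. That probe set was dimmer still, at 3.28 ± 0.08 in the triple mutant, 3.47 ± 0.14 in the quadruple mutant and 3.55 ± 0.09 in wild type (SD, n = 3 each). The 3 triple-mutant arrays again lay lowest, with a difference of -0.27 to wild type (SE 0.10, adjusted p = 0.241 by limma) and of -0.20 to the quadruple mutant (SE 0.10, adjusted p = 0.528 by limma), and neither passed.

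Of the 32 genes on the iron list 6 had a listed probe set, and none of the 5 besides BTSL1 passed in any comparison (limma, adjusted p under 0.05). The transcription factor gene BHLH101, which is induced when iron is short, averaged 4.09 ± 0.12 in the triple mutant, 4.50 ± 0.29 in the quadruple mutant and 4.47 ± 0.23 in wild type (SD, n = 3 each), a pattern like that of the members that did not pass (limma adjusted p = 0.331 between the mutants and 0.322 between the triple mutant and wild type). BTSL2, the closest relative of BTSL1, was bright and not low in the triple mutant. It stood at 8.07 ± 0.10 in the triple mutant, 8.02 ± 0.03 in the quadruple mutant and 7.77 ± 0.13 in wild type (SD, n = 3 each). Both mutants thus averaged above wild type, without passing in any comparison. The remaining iron genes were not clearly low in the triple mutant either. Relative to wild type, its mean differed by 0.42 in F6'H1 (SE 0.25), 0.21 in ILR3 (SE 0.10) and -0.06 in PYE (SE 0.10). Over the 6 measured iron genes, BTSL1 included, the median of this difference was 0.07, against -0.02 over all probe sets. BHLH101 is thus not typical of the list. The list was written by hand and lacks AT1G47400 and most other members. It therefore does not show that BTSL1 is the only member with a part in iron homeostasis.

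AT1G23160 was entered on the auxin list as GH3.7, again from general knowledge; enzymes of the GH3 family join small acids to amino acids, and several of them inactivate auxin in this way. Its values were 6.78, 6.17 and 7.37 in the triple mutant, 8.95, 8.60 and 8.88 in the quadruple mutant and 8.36, 7.52 and 8.06 in wild type. The triple-mutant arrays spread over 1.2 log2 units, the highest of them only 0.15 under the lowest wild-type array, and all quadruple-mutant arrays stood above wild type. Among 13 measured genes of 41 on the auxin list, 3 passed as higher in the quadruple mutant compared with the triple mutant, where 0.554% of all probe sets did, and 0 were lower. They were AT1G23160 itself, IAA20, which met the rule's values, and WES1, so nothing is read from this count. WES1, also called GH3.5 and an auxin-conjugating enzyme, was not a member, at 5.88 ± 0.24 in the triple mutant, 6.57 ± 0.15 in the quadruple mutant and 6.21 ± 0.13 in wild type (SD, n = 3 each), since it lay 0.33 and not 0.4 below wild type and its highest triple-mutant array was above its lowest wild-type array.

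Over all 11 lists together, 35 of 177 genes were measured, and 4 of the lists' genes apart from members passed in any comparison. Between the triple mutant and wild type 2 of the 35 were lower, BTSL1 and PHV, and 0 were higher, while 0.246% of all probe sets were lower; both are members, so nothing is read from this count. With the replicate number as a block 5 of the 35 passed. AGL42 and AT1G23160 were added as lower in the triple mutant, and GH3.17 as higher, by 0.41. Between the quadruple and the triple mutant 7 of 35 were higher and 0 lower, where 0.554% of all probe sets were higher. Of those 7, 5 met the values of the rule, so nothing is read from this count. These 5 were the members PHV, BTSL1 and AT1G23160 and the 2 genes left out by name, AGL42 and IAA20. The others were WES1 and BBM, which did not meet the values.

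The comparison that the rule did not set is that of the quadruple mutant with wild type, although the same arrays took part in choosing the members. It sets the members' levels in the quadruple mutant beside those in wild type. Apart from rev-6, the quadruple mutant may differ from the triple mutant in its PHV allele and in how seedlings were picked. The parts of these cannot be told apart here. Of the 64 members 1 passed, PHV, by a difference of -2.08 (SE 0.09, adjusted p = 5.70e-06 by limma), and 0.044% of all probe sets passed. None of the other 63 did, and their lowest adjusted p was 0.140 (limma). At an unadjusted p under 0.05 (limma) there were 12 members, or 18.8%, against 9.39% of all probe sets. Of them 11 were higher in the quadruple mutant, where 5.81% of all probe sets were, and 1 was lower, where 3.58% were. Since the rule favours high quadruple-mutant values, nothing is read from this excess.

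Differences between the quadruple mutant and wild type ran from -0.20 to 0.82 in the 63 members besides PHV. They were positive in 35 of the 64 and negative in 29, where 51.4% of all probe sets were positive. The median was 0.02, where that of all probe sets was 0.0049. In 47 members the difference was smaller than 0.2 in size. The matching share over all probe sets was not counted, so nothing is read from this number. The 95% intervals had a median half-width of 0.29 and reached 1.03 in NDB4, so a missed threshold does not show equal levels: for AT5G55790 the interval ran from -0.27 to 0.27, for HEMA3 from -0.19 to 0.27 and for SWEET17 from -0.24 to 0.32.

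AT3G62320 came closest to passing upward. It had 6.94, 6.79 and 7.11 in the quadruple mutant against 6.46, 6.38 and 6.30 in wild type, a difference of 0.57 (SE 0.10, limma adjusted p = 0.140). All 3 quadruple-mutant arrays were higher, and the triple mutant lay lower still, at 5.75, 5.90 and 5.79. AT1G23160 had the largest difference, 0.82 (SE 0.28, limma adjusted p = 0.472), followed by AT5G22580 at 0.58 (SE 0.21, limma adjusted p = 0.475). AT1G47410 at 0.41 and ATGSTF13 at 0.39 complete the upper 5, with adjusted p = 0.364 and 0.459 (limma). At the lower end, below 0, stood AT3G60540 (-0.20), AT4G39970 (-0.19), AT1G78020 (-0.18) and AT1G23340 (-0.14) after PHV, with adjusted p of 0.639 to 0.779 (limma).

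Taking arrays rather than means, all 3 quadruple-mutant arrays were above all 3 wild-type arrays in 10 members, or 15.6%, against 7.61% of all probe sets. They were below in 2 members, or 3.12%, against 5.17%. The other 52 members had overlapping groups. High quadruple-mutant arrays also made it easier for a gene to meet the rule, so these shares are not independent of how the members were chosen.

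**Figure D3:**
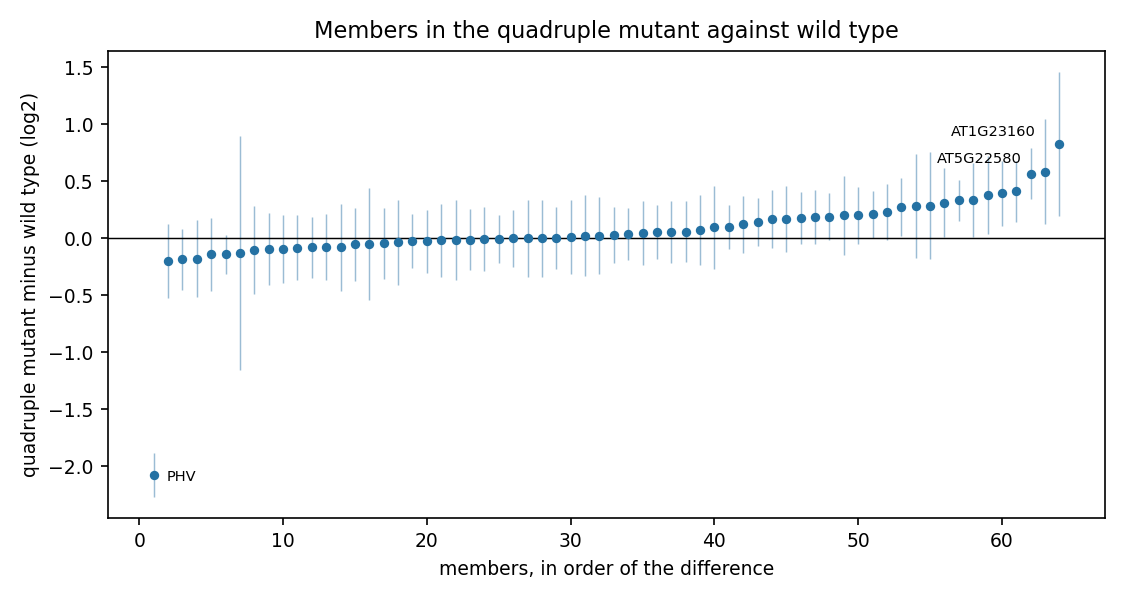
Members are ordered along the horizontal axis by the difference of the quadruple mutant minus wild type in log2 signal, shown on the vertical axis with its 95% interval from limma. PHV stands alone at -2.08, the other 63 run from -0.20 to 0.82, and the widest interval belongs to NDB4.

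In wild-type root tips the members were of middling abundance. Their median wild-type level was 5.88, against 5.38 over the probe sets that could be chosen. A wild-type level under 5 was found in 17 members (26.6%) but in 47.2% of those probe sets, and a level of 8 or more in 8 members (12.5%) against 20.7%. The wild-type level is one of the values that the rule used, so these shares describe the selection as well as the members. The brightest was AT1G52060, at 10.80, 10.98 and 11.02 in the triple mutant, 11.67, 11.69 and 11.69 in the quadruple mutant and 11.55, 11.55 and 11.67 in wild type. AT5G55180 was the other member with means above 10 in both of those genotypes, at 9.37 ± 0.11 in the triple mutant, 10.22 ± 0.12 in the quadruple mutant and 10.08 ± 0.07 in wild type (SD, n = 3 each). No detection call was used, and 31 members had a triple-mutant mean under 5, below the medians of the arrays.

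All 64 members are annotated as protein-coding, as are 92.6% of the probe sets that could be chosen. Spread between replicates was no smaller in the members than elsewhere, with a median SD of 0.14 in the triple mutant, 0.14 in the quadruple mutant and 0.17 in wild type, against 0.11, 0.10 and 0.15 over all probe sets that could be chosen.

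A share of the members lay close together on the chromosomes. In the annotated gene order, 28 of the 64 had another member within 50 protein-coding genes. No matching count was made for other sets of genes, so nothing is read from that number. The densest stretch was on chromosome 5, from AT5G54860 to AT5G56380, which spans 165 protein-coding genes. Of 78 probe sets there, for 77 genes, 8 were members, or 10.3%, against 0.479% of all probe sets that could be chosen: AT5G54860, AT5G55180, AT5G55350, AT5G55650, AT5G55790, AT5G56260, AT5G56370 and AT5G56380. They are 47.1% of the 17 members on chromosome 5 and include both members with the largest smaller difference. The stretch was picked after the members' places were seen, so its share is a description.

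Within the stretch the differences were unequal. AT5G54860 had 7.92, 8.06 and 8.04 in the triple mutant, 8.67, 8.59 and 8.73 in the quadruple mutant and 8.60, 8.58 and 8.82 in wild type, a 1.57-fold step against the quadruple mutant. AT5G56380, at 5.71-fold, stood at the other end, and AT5G55790 between them at 2.94-fold. Of the other 70 probe sets in the stretch, 71.4% lay below 0 for the triple mutant minus the mean of the other 6 arrays, against 61.2% of all probe sets that were not members, with medians of -0.04 and -0.03. All 3 triple-mutant arrays were under the other 6 in 5 of these 70 (7.14%), against 2.25% of all probe sets that were not members. One gene of the stretch was high only in the triple mutant.

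**Figure D4:**
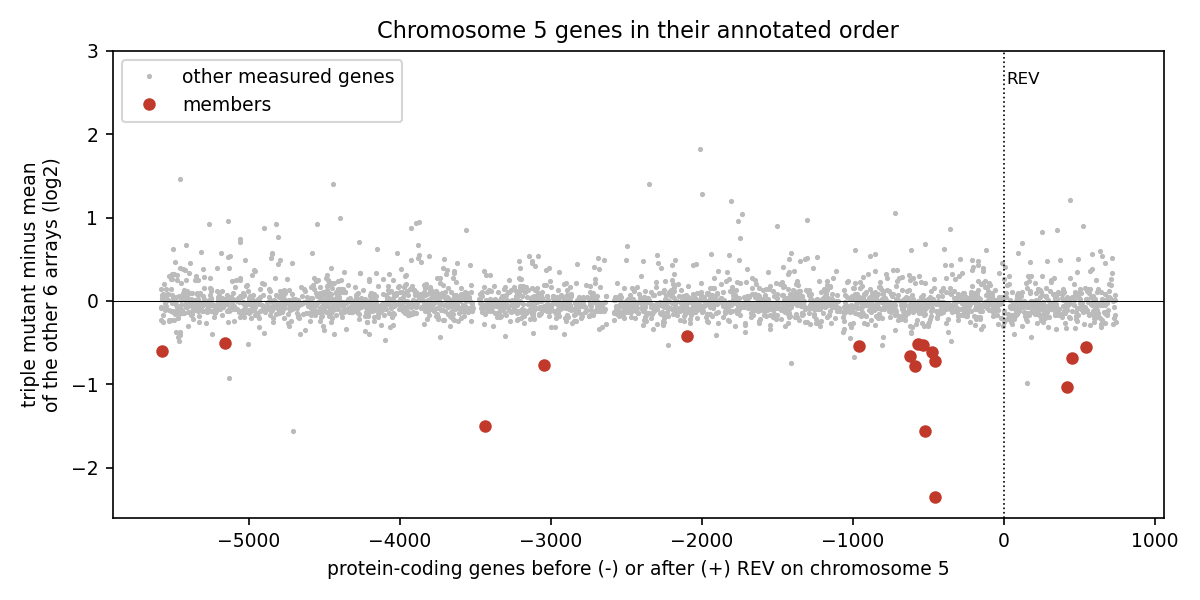
Probe sets for protein-coding genes of chromosome 5 are placed by gene order relative to REV, the gene hit in the quadruple mutant, on the horizontal axis. The vertical axis is the triple-mutant mean minus the mean of the other 6 arrays in log2 signal, members are red and other genes grey. A group of 8 members stands to the left of REV with 456 protein-coding genes between its end and REV, and 3 members lie to the right.

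When every chromosome was divided into runs of 78 measured protein-coding genes, 109 of 154 runs held 0 members, 37 held 1 and 8 held 2 or more. These runs held 61 members, and the other 3, AT2G47680, AT4G39955 and AT4G39970, lay past the last whole run of their chromosome. The fullest run held 6 and lay within chromosome 5, from AT5G55320 to AT5G57000. The next held 4, from AT1G22440 to AT1G23600 on chromosome 1, where AT1G22980, AT1G23000, AT1G23160 and AT1G23340 are members. In that group AT1G22980 averaged 4.25 ± 0.33 in the triple mutant, 4.96 ± 0.01 in the quadruple mutant and 4.99 ± 0.12 in wild type (SD, n = 3 each), while the difference of AT1G23160 was far larger. By chromosome, members made up 0.580% of the probe sets on chromosome 1, 0.455% on 2, 0.364% on 3, 0.357% on 4 and 0.565% on 5.

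Around the mutated genes the share of members was near that over all probe sets, 0.479%, with counts too small to tell more. Within 400 protein-coding genes on either side, 2 of 339 probe sets around PHB were members (0.590%), 2 of 376 around PHV without PHV itself (0.532%), 1 of 373 around CNA (0.268%) and 0 of 380 around REV. The member near CNA is AT1G52060, 8 genes away, the brightest of all members. The dense stretch on chromosome 5 is thus on the same chromosome as REV but outside this distance.

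The remaining named members followed the common pattern. AT1G22030 and AT5G64710 were both 1.81-fold below wild type and 2.25- and 2.29-fold below the quadruple mutant. AT3G03680 and AT5G26270 had the quadruple mutant and wild type within 0.1 of each other, with the triple mutant 0.76 and 0.77 below the quadruple mutant on the log2 scale. AT2G16005 averaged 3.63 ± 0.06 in the triple mutant, 4.61 ± 0.49 in the quadruple mutant and 4.32 ± 0.24 in wild type (SD, n = 3 each), with its quadruple-mutant arrays the most spread. AT2G03850 and AT5G64980 were dim, with wild-type means of 5.25 and 4.05 and triple-mutant means of 4.53 and 3.46. The 26 members not named by the rule for naming had a smaller difference of 0.40 to 0.56 and wild-type means between 4.02 and 10.07.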

How the data were processed

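Total RNA of root tips was labelled with biotin and hybridized to 1-colour arrays, 250 ng per array, per the labels' protocols. Deposited values are in log2 units, 1 for each probe set on each array. Affymetrix Expression Console, RMA and limma appear in the submitters' processing notes without a version. Values from RMA are background-corrected and scaled between arrays, so every difference is relative to the other transcripts. The number of arrays limits precision, and since the labels call the replicates biological without saying how seedlings were divided, p-values measure the spread between these samples.

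Of 22810 probe sets, 64 controls were left out of the tests. The platform annotation gives 13513 probe sets 1 gene, 503 several and 8730 none listed; names were updated through RefSeq (TAIR10.1), where 77 found no match. No build is named for the array, so only gene order was used, and BLASTP of the members' proteins was not run. A mean for each genotype was fitted over the 9 arrays (limma 3.58.1, R 4.3.3), with Benjamini-Hochberg adjustment over 22746 probe sets; the fit was checked on simulated data. Same-numbered arrays deviated together between the triple mutant and wild type (correlations 0.273, 0.330 and 0.408) and between the mutants (0.217, 0.340 and 0.515), where the titles' numbers were read as pairs, but not in every pair of the quadruple mutant and wild type (0.0427, 0.342 and 0.360).

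The members and gene lists were chosen with earlier results of these data known. Genes were named by rule: the 25 members furthest below both genotypes, other members with a symbol, the 5 highest and 5 lowest in the quadruple mutant against wild type and any that passed, members on a list, the 3 nearest to the threshold on each side, and members next to each other. AT3G43960, members listed as part of a stretch or run and list genes were named after their values were seen. In lists, the brightest probe set stood for its gene. Alternatives were quantile normalization, median centring, a difference of 0.5, a minimum mean log2 of 5, the replicate block, the 6 arrays compared, array weights, a robust fit with a trend in the variance and leaving out each array.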

Additional observations from a re-analysis of the deposited data

Results flagged for a closer look

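The hybridization spike-in controls lie outside the gene measurements and were higher on every triple-mutant array than on any other. Their lowest triple-mutant mean was 10.16 in log2 signal, against 10.07 for the highest of the other 6 arrays. Their part in the members' differences was not tested.

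Probe sets without a listed gene also held the pattern of the members. In all, 41 of 8730 met the values of the rule, and in the strongest of them the smaller difference was 1.29 on the log2 scale. They cannot be named or placed here.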

How the results depend on the processing

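Of the 64 members, 35 met the rule in each of the 9 sets that left out 1 array. Without 1 array the rule found 57 to 89 probe sets, and without the 3 arrays numbered 3, an alternative chosen after seeing the data, it found 95, of which 57 were among the 64. With a difference of 0.5 it found 35. Median centring shifted all probe sets by -0.10 in the triple mutant against wild type and gave 87, 63 of them shared; quantile normalization gave 72, with 62 shared. NDB4 was no longer a member after median centring. The chromosome 5 stretch held 6 to 9 members under these alternatives. All 152 recomputed differences of named members stayed below 0.

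Between the quadruple mutant and wild type 10 probe sets passed, against 67 with the replicate block, 5 with only the 6 arrays compared and 2 without the 3 arrays numbered 3. The count was 59 without wild-type replicate 1, 4 without wild-type replicate 2 or 3 or any 1 quadruple-mutant array, and 5 and 6 without triple-mutant replicates 1 and 3. PHV was the 1 member to pass under every alternative run, the replicate block included. Of the 35 list genes, 4 passed with the replicate block in this comparison, against 1, and between the triple mutant and wild type 5 passed with the block and 4 after median centring, against 2. The cause was not tested. Low signal limits the dim members most, since no detection call was used.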
